A study of Homo sapiens with 12 samples.

Results

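The genes IGFBP1, IGFBP3, INSR, IRS1 and IRS2 of insulin and insulin-like growth factor (IGF) signalling were examined for histone marks in HepG2, an established human liver cancer cell line. Their regions were taken as the peaks of the 3 pooled ChIP-seq peak lists with at least 1 base within 50 kb of the gene start in GRCh37 (hg19). By that rule 85 of 273551 peaks on chromosomes 1 to 22 and X were included, made up of 21 of 66513 H3K27ac peaks, 55 of 182592 H3K4me1 peaks and 9 of 24446 H3K4me3 peaks. The rule itself uses no measured value. Per the labels, the series held 12 libraries in 4 groups of 3 (a control and the 3 marks H3K4me3, H3K27ac and H3K4me1), all from untreated cells grown in serum-supplemented medium. The control libraries are titled as input, while their antibody label names anti-mouse IgG. The lists pool the 3 replicates of a mark, so there is no spread between cultures behind any value here, no difference between genes could be tested, and the depth of the libraries is unknown. The study used the marks to choose among candidate variants, and no insulin or fasting contrast was part of it.

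Insulin and the IGFs act through related receptor tyrosine kinases. An activated receptor phosphorylates IRS adaptor proteins, which recruit phosphatidylinositol 3-kinase and start the AKT branch, and AKT in turn keeps forkhead (FOXO) transcription factors out of the nucleus. The IGFs circulate bound to IGF-binding proteins. In liver, IGFBP1 and IRS2 are textbook genes repressed by insulin and activated by FOXO factors during fasting. H3K4me3 typically marks promoters, H3K4me1 enhancers and promoter flanks, and H3K27ac the active members of both.

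The promoter table from RefSeq (GRCh38.p14) held 4 of the 5 genes, with 250 bases before to 50 bases after the gene start; IGFBP1 had no entry. The sequences are shown because their starts carried very different marks, as described below. They are written 5′ to 3′ on the gene strand. Capitals mark matches to any of 4 motifs searched on both strands. These included TATAAA (a form of the TATA box, a core promoter element) and CACGTG (a form of the E-box). Other forms of the TATA box or the E-box were not searched. The remaining motifs were CAAAACA (the core of the insulin-response elements that FOXO factors bind) and GTAAACA (a forkhead motif).
IGFBP3 (chr7:45921223-45921522, GRCh38.p14, minus strand): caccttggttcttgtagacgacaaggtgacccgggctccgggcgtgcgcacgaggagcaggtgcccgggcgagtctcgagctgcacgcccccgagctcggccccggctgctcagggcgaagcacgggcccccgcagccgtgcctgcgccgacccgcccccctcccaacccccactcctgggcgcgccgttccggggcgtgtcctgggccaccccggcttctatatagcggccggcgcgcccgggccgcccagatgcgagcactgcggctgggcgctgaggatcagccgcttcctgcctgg
INSR (chr19:7294365-7294664, GRCh38.p14, minus strand): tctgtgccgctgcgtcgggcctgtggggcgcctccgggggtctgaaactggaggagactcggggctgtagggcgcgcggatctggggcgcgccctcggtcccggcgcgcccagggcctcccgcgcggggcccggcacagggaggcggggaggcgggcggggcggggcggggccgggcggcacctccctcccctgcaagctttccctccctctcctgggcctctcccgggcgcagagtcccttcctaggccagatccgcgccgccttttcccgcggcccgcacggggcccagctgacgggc
IRS1 (chr2:226799771-226800070, GRCh38.p14, minus strand): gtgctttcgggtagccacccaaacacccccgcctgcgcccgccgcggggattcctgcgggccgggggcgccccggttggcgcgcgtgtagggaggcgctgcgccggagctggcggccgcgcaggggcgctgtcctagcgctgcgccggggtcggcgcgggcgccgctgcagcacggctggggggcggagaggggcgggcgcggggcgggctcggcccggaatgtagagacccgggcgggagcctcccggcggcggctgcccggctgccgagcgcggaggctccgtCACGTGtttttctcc
IRS2 (chr13:109786534-109786833, GRCh38.p14, minus strand): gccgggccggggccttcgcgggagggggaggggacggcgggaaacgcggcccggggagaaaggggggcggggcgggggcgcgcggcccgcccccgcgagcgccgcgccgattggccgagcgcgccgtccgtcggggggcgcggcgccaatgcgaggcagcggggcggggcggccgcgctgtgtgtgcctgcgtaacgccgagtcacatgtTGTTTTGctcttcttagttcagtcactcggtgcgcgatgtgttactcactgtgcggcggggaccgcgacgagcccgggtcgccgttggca
These starts are those of a newer build and need not coincide with the GRCh37 starts used for the peaks, and where the windows fall within the peaks was not determined.

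All 4 promoters were rich in CpG dinucleotides, the sites of DNA methylation that are dense in CpG islands. The IRS2 window held 50 CpG and the IRS1 window 47, more than 98.7% and 97.6% of the 35116 RefSeq promoters of the same length. The IGFBP3 and INSR windows held 36 each, more than 87.3% of them, against a median of 14. The most CpG-rich window belonged to IRS2, the start with the fewest marked bases around it, while IGFBP3 and INSR had equal counts and very different marks. A relation between CpG content and the marks was not tested. CAAAACA occurred in reverse, as TGTTTTG, in the IRS2 window from base -40 to -34, and that motif was in 4.92% of all promoters. CACGTG occurred in the IRS1 window from base 36 to 41 after the start, and was in 7.26% of all promoters. TATAAA (11.5% of all promoters) and GTAAACA (3.42%) were in none of the 4 windows. A match is a description of the letters and not of a bound site.

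The 5 starts fell into 3 with acetylation and 2 without. H3K27ac peaks contained the starts of IGFBP1, INSR and IRS1, with signal values (the authors' own value for a peak, from their peak caller) of 45.4, 50.04 and 25.3 against a median of 3.15 for the H3K27ac list. No H3K27ac peak contained the starts of IGFBP3 and IRS2, where the nearest lay 26063 and 16098 bp away. H3K4me3 was present at all 5, containing 4 starts and ending 199 bp upstream of the fifth, IRS2. Its signal values covered a wide range: 78.9 at INSR, 64.3 at IGFBP1, 36.5 at IRS1, 5.88 at IRS2 and 2.76 at IGFBP3, with a list median of 13.3. The order of H3K4me3 put the same 3 genes above the other 2 as H3K27ac did. H3K4me1 contained the start of IRS1 and of none of the others, although peaks lay within 1000 bp of the starts of IGFBP1, IGFBP3 and INSR.

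**Figure D1:**
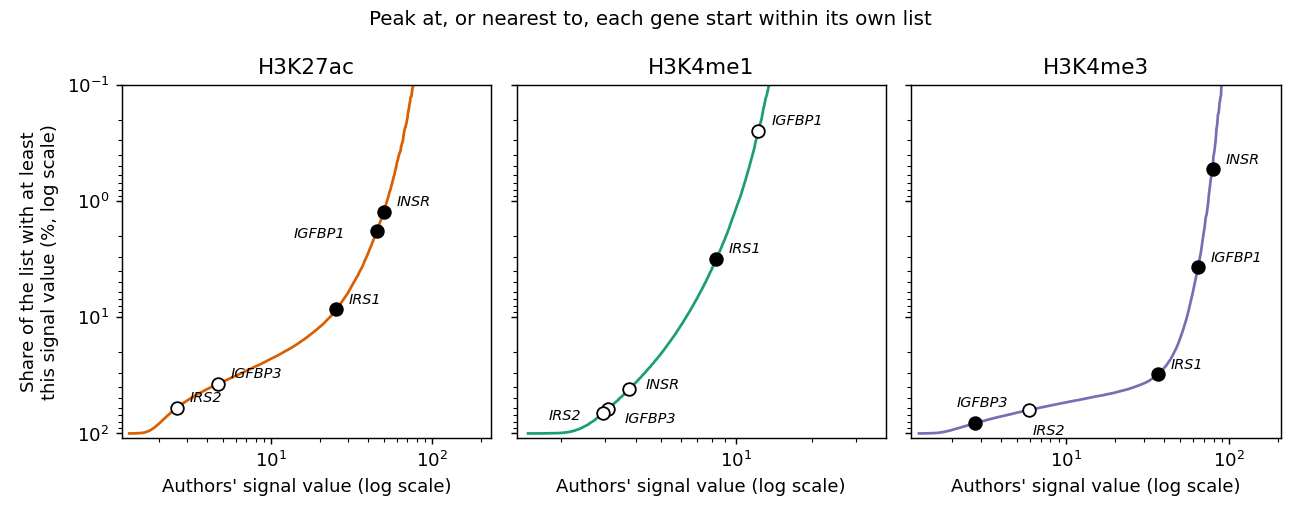
Authors' signal value (horizontal axis, log scale) of the peak at each gene start against the share of its list with at least that value (vertical axis, percent, log scale, strongest at the top); the line is the whole list, filled points are peaks that contain the start and open points the nearest peak where none does. INSR and IGFBP1 lie high on the H3K27ac and H3K4me3 lines, whereas IGFBP3 and IRS2 lie lower. The H3K27ac points of IGFBP3 and IRS2 are peaks 26063 and 16098 bp from the start, at 37.3% and 59.9% of the list. IRS1 lies between these pairs of genes, at 8.51% of the list for H3K27ac and 30.9% for H3K4me3. For H3K4me1 the IGFBP1 and IRS1 points stand above the other 3.

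The overlaps between marks were read against those of the whole lists. Of the 9 H3K4me3 peaks, 6 shared at least 1 bp with H3K27ac, compared with 77.5% of the whole H3K4me3 list, and 7 shared at least 1 bp with H3K4me1, compared with 92.7%. The 3 H3K4me3 peaks without H3K27ac were a pair at the IGFBP3 start and the peak at IRS2, and these 3 also had no H3K27ac peak within 10 kb of their summits, which held for 15.8% of the list. H3K4me3 summits inside an H3K4me1 peak numbered 2 of 9, both near IGFBP1, against 40.6% of the list. Among the 21 H3K27ac peaks, 15 were enhancer-like (sharing bases with H3K4me1 and none with H3K4me3), against 59.8% of the list, and 6 shared bases with H3K4me3, against 31.7%. With all lists limited to a −log10 q-value of at least 5, 10 of 19 were enhancer-like, and the share of the whole list was not computed under that limit. Of the 55 H3K4me1 peaks, 25 shared no base with either other mark, against 61.6%. The peaks of a window are neighbours on the same chromosome and were not treated as independent, and most of the 21 H3K27ac peaks were ordinary in strength: 3 were among the strongest 10% of the list, and 9 among the strongest 50%. Those 3 were the peaks at the IGFBP1, INSR and IRS1 starts.

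**Figure D2:**
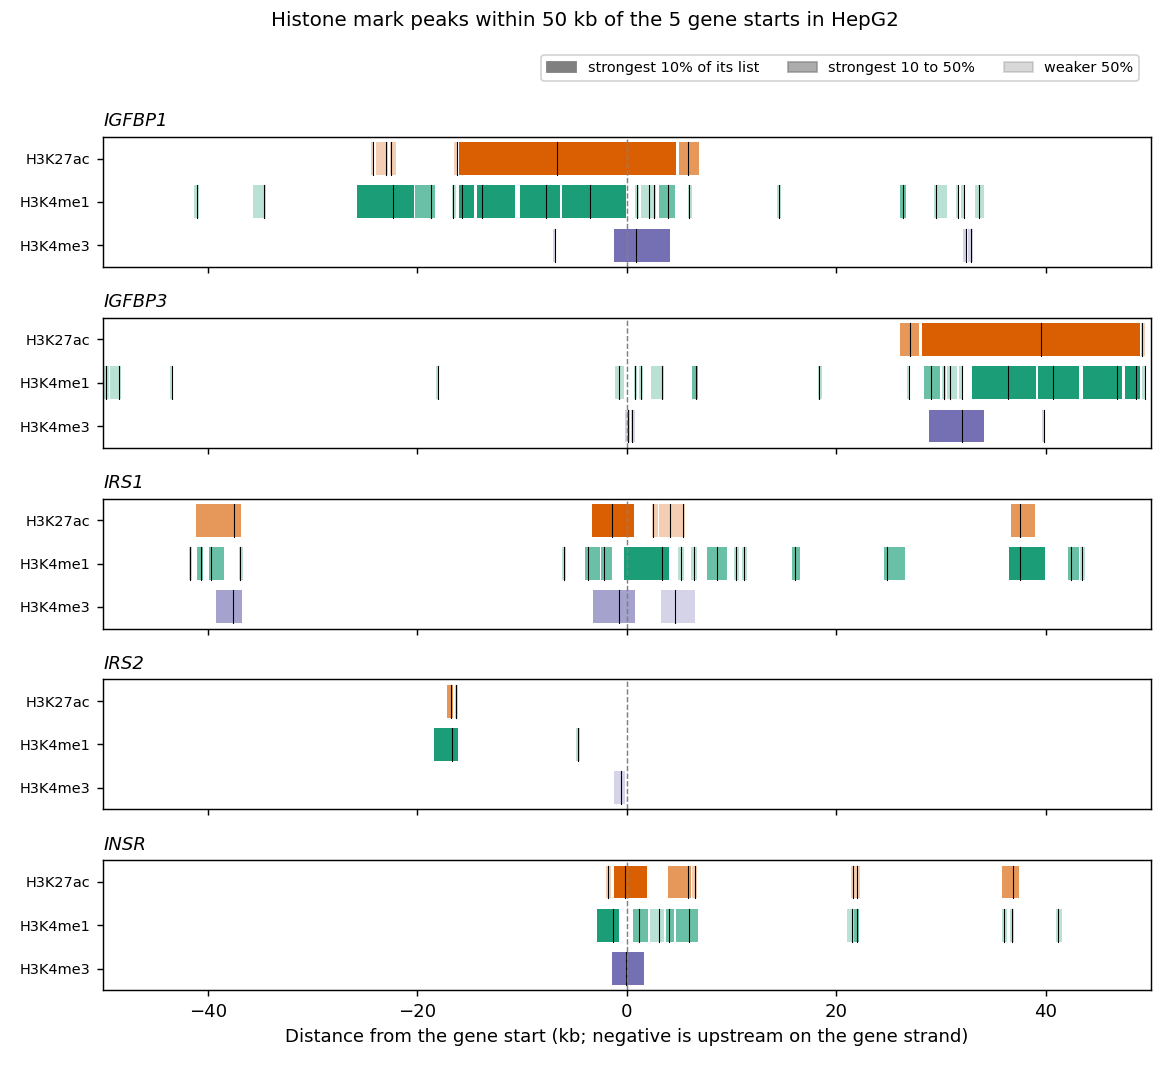
Peaks of H3K27ac (orange), H3K4me1 (green) and H3K4me3 (purple) by distance from each gene start in kb, with upstream to the left on the gene strand; the shade gives the rank of a peak's signal value in its own list, black ticks are summits and the dashed line is the start. IGFBP1 sits towards the right end of a continuous acetylated block of 20765 bp, which appears again on the right of the IGFBP3 panel because the windows overlap, and the IRS2 panel is nearly empty.

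IGFBP1 encodes a secreted IGF-binding protein made mainly by hepatocytes. Its start (chr7:45927959, plus strand) lay inside an H3K27ac peak of 20765 bp, at chr7:45911896-45932660, that ran from 16063 bp upstream to 4701 bp downstream. This was the widest peak near the 5 genes and had rank 14 by width among 66513, where the median width was 723 bp. By signal value it had rank 1205. Its summit was not at the start but 6662 bp upstream. The H3K4me3 peak at the start was also broad, at 5295 bp (chr7:45926751-45932045, rank 450 of 24446 by width), and it was skewed the other way, reaching 1208 bp upstream and 4086 bp downstream with its summit 865 bp downstream. Thus the strongest acetylation lay upstream of the H3K4me3 peak, and the H3K4me3 peak at the start covered 25.5% of the acetylated block.

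A row of 4 H3K4me1 peaks lined the upstream part of that block and were among the strongest of their list. The nearest ran from 6177 to 46 bp upstream of the IGFBP1 start, with a signal value of 12.3 and rank 452 of 182592. The next ran from 10230 to 6343 bp upstream and was the strongest H3K4me1 peak near any of the 5 genes, with a signal value of 13.8 and rank 149. The other 2, with summits 13842 and 15748 bp upstream, had signal values of 8.83 and 8.06 (ranks 4301 and 6751). The H3K27ac summit and a very weak H3K4me3 peak (signal value 1.58, rank 24241 of 24446, summit 6875 bp upstream) both fell inside the strongest of these H3K4me1 peaks. Downstream of the start the same mark was weaker, with 4 peaks whose signal values were 2.38, 3.28, 2.17 and 4.03 inside the acetylated block. Within 50 kb, H3K4me1 covered 24.7 kb upstream of the IGFBP1 start and 7.31 kb downstream.

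Beyond the block, IGFBP1 had 5 smaller H3K27ac peaks within 50 kb, all enhancer-like, against 59.8% of the whole list. Of these, 3 were so when all lists were limited to peaks whose −log10 q-value was 5 or more. The strongest of them lay directly downstream, at chr7:45932941-45934808 with its summit 5865 bp from the start and a signal value of 4.70. Its sole H3K4me1 overlap was a peak of signal value 1.81 (rank 182250 of 182592, −log10 q-value 2.67) that covered 16.9% of it. The other 4 lay 16140 to 24421 bp upstream with signal values of 2.10 to 2.59, below the list median. A strong H3K4me1 peak of 5463 bp (signal value 7.87, rank 7512) covered 3 of these 4. The next gene upstream of IGFBP1 in RefSeq (GRCh38.p14) is CCDC201, and whether these peaks lie at its start was not determined. When H3K27ac peaks separated by at most 12500 bp were joined, all 6 formed a run of 31271 bp, with rank 1682 of 21593 runs by length and rank 2253 by summed signal value (59.2). The median run was 2835 bp long.

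IGFBP3 encodes the main IGF carrier of the circulation, and in rodent liver its transcript is found mainly in nonparenchymal cells. Its start (chr7:45960871, minus strand) lies 32912 bp from that of IGFBP1, and the genes point towards each other. All 4 H3K4me3 peaks, 3 of 6 H3K27ac peaks and 16 of 24 H3K4me1 peaks near either start were therefore counted for both, so the window values of these genes are not separate measurements. At the IGFBP3 start itself the marks were few and weak. A peak of H3K4me3 of 529 bp (chr7:45960522-45961050) contained the start with a signal value of 2.76, rank 20007 of 24446, and a −log10 q-value of 12.6. A second, of 370 bp, began 402 bp downstream with a signal value of 1.85, rank 23429. No base of the H3K4me3 peak at the IGFBP3 start was covered by H3K27ac or H3K4me1.

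Small H3K4me1 peaks stood on both sides of the IGFBP3 start. One ended 312 bp upstream (signal value 3.08) and the next began 667 bp downstream (signal value 2.54), leaving 978 bp free around the H3K4me3 summit. H3K27ac was absent from the list over the whole 50 kb upstream of IGFBP3, and the next upstream peak lay 50669 bp away with a signal value of 15.0. Downstream the first H3K27ac peak was the one 26063 bp away that also flanks IGFBP1. The 23.0 kb of H3K27ac counted for the IGFBP3 window thus all belonged to the IGFBP1 side. Of 3573 H3K4me3 peaks with a signal value within 1.25 times that of IGFBP3, 51.4% shared a base with H3K27ac and 33.4% had none within 10 kb.

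INSR encodes the insulin receptor. Its start (chr19:7294011, minus strand) had the strongest H3K4me3 peak of the set, with a signal value of 78.9 and rank 130 of 24446 (chr19:7292358-7295427, 3070 bp). The summit lay 69 bp upstream of the start and the peak reached 1416 bp upstream and 1653 bp downstream. The H3K27ac peak there, chr19:7292089-7295242, was the strongest of the 21, with a signal value of 50.04 and rank 820 of 66513, and its summit was 161 bp upstream. Peaks on chromosome 19 had higher signal values than the lists as a whole (median 19.6 for H3K4me3 and 3.91 for H3K27ac), and among them these INSR peaks had ranks 27 of 1641 and 62 of 3324. In contrast to IGFBP1, both marks were centred on the GRCh37 start of INSR and of like extent. The H3K4me3 peak at INSR covered 91.5% of the H3K27ac peak, against 25.5% at IGFBP1. H3K27ac in turn covered 94.0% of the H3K4me3 peak, against 100% at IGFBP1. The position of the INSR peaks relative to the RefSeq start, which need not coincide with the GRCh37 start, was not determined. H3K4me1 overlapped the outer parts of both peaks, covering 53.8% of the H3K4me3 peak and 55.1% of the H3K27ac peak. It ended 787 bp upstream of the start and began again 631 bp downstream, which left 1417 bp free around the H3K4me3 summit. Of these H3K4me1 peaks, the upstream one (signal value 6.56, rank 15886 of 182592) was the strongest near INSR, and the downstream one had a signal value of 3.75.

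All other H3K27ac peaks near INSR but 1 lay downstream, and all 6 were enhancer-like, against 59.8% of the whole list. Under the same limit on the q-value, 3 of the H3K27ac peaks near INSR were enhancer-like. The 1 upstream was the weakest H3K27ac peak of the set, with a signal value of 1.64. The strongest, at chr19:7287905-7290043 with its summit 5826 bp downstream, had a signal value of 6.80 (rank 19591) and was 93.5% covered by H3K4me1. Next came a peak with its summit 36857 bp downstream (5.04) and a peak 21946 bp downstream (2.94). No second H3K4me3 peak was listed within 50 kb of INSR, and the next lay 94908 bp away. H3K4me1 in the INSR window numbered 10 peaks, of which 8 shared bases with H3K27ac, against 61023 of 182592 in the whole list. Joined in this way, 4 H3K27ac peaks around the start formed a run of 8669 bp. Its summed signal value of 61.1 (rank 2118 of 21593) was close to that of the much longer run at IGFBP1. The sum adds the signal value of each peak regardless of its width, so it is not a total amount of acetylation.

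**Figure D3:**
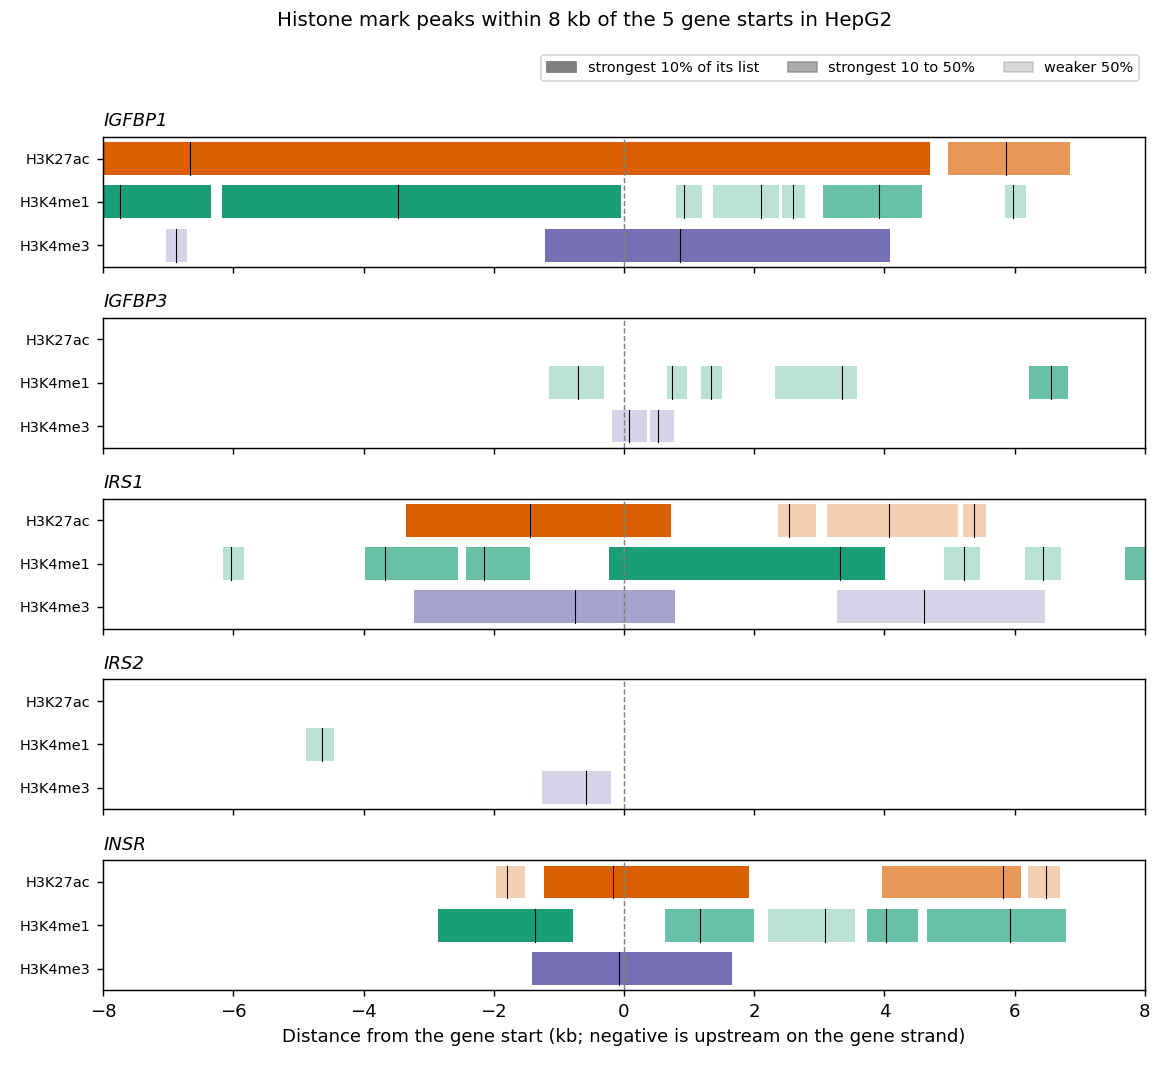
The same peaks within 8 kb of each start, with distance in kb, marks, shades and ticks as in the wider map. At INSR the H3K4me3 and H3K27ac peaks span the start and overlap the H3K4me1 peaks on both sides of it. At IRS1 the H3K4me3 and H3K27ac peaks at the start lie mainly upstream. H3K4me1 lies on both sides there, and its strongest peak runs downstream from 224 bp before the start. At IGFBP3 and IRS2 the H3K27ac row is empty.

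IRS1 encodes the adaptor that couples the receptors to phosphatidylinositol 3-kinase in many tissues. Its start (chr2:227663506, minus strand) was contained in peaks of all 3 marks, the sole start of the 5 for which this held. The RefSeq start of IRS1 need not coincide with this GRCh37 start, and the marks at the RefSeq start were not determined. H3K4me3 (chr2:227662728-227666736, 4009 bp) had a signal value of 36.5, rank 7555 of 24446, and lay mainly upstream, from 3230 bp before to 778 bp after the start. H3K27ac followed it closely, from 3354 bp before to 719 bp after, with a signal value of 25.3 and rank 5660 of 66513. Their summits were 755 and 1444 bp upstream. H3K4me1 lay on both sides. Its strongest peak near IRS1, of 4230 bp (signal value 8.34, rank 5701 of 182592), began 224 bp before the start and reached 4005 bp downstream. Weaker H3K4me1 peaks ran from 2428 to 1450 bp upstream (signal value 4.13) and from 3980 to 2544 bp upstream (3.43). H3K4me1 covered 66.6% of the H3K4me3 peak at the IRS1 start. The H3K4me3 summit nevertheless lay outside H3K4me1, in a free stretch of 1225 bp between 1450 and 224 bp upstream.

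Another H3K4me3 peak lay downstream of the IRS1 start, and its acetylation was much weaker than at the start. It spanned chr2:227657037-227660237, 3269 to 6469 bp downstream, with a signal value of 11.7 and rank 12655. The H3K27ac peaks over it had signal values of 2.26 and 1.97, below the list median, against 25.3 at the start. On the other side, an H3K4me3 peak lay 36770 to 39249 bp upstream (signal value 17.4), with an H3K27ac peak of 4288 bp and signal value 14.7. In RefSeq (GRCh38.p14) the next gene on that side is RHBDD1, which comes within 50 kb of the IRS1 start in that build. Whether this pair of peaks lies at the RHBDD1 start was not determined.

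The strongest enhancer-like H3K27ac peak near IRS1 lay downstream, at chr2:227624525-227626790 with its summit 37572 bp downstream. It had a signal value of 6.35 (rank 20479) and was 100% covered by an H3K4me1 peak of 3514 bp with a signal value of 6.46. The other enhancer-like peak, 2370 to 2951 bp downstream, had a signal value of 1.94. Of the 18 H3K4me1 peaks near IRS1, 9 shared no base with the other marks, against 61.6% of the whole list. The strongest of those 9 had its summit 24855 bp downstream (signal value 5.51). H3K4me1 covered 15.7 kb downstream of the start and 5.67 kb upstream, the reverse of the balance at IGFBP1.

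IRS2 encodes the second hepatic adaptor of insulin signalling. Its start (chr13:110438914, minus strand) had the sparsest surroundings of the set, with 6 peaks in all within 50 kb and none of any mark downstream. The nearest was an H3K4me3 peak of 1061 bp at chr13:110439113-110440173, from 1259 to 199 bp upstream, with a signal value of 5.88, rank 15409 of 24446, and a −log10 q-value of 53.5. It shared no base with H3K27ac or H3K4me1. A small H3K4me1 peak ended 4457 bp upstream (signal value 2.94). Among 2119 H3K4me3 peaks with a signal value within 1.25 times that of IRS2, 55.6% shared a base with H3K27ac and 33.0% had none within 10 kb.

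Upstream of IRS2 a pair of H3K27ac peaks lay within an H3K4me1 peak. The H3K4me1 peak (chr13:110455000-110457370, 2371 bp) had a signal value of 6.34 and rank 17871 of 182592, in the strongest 10% of that list. The H3K27ac peaks, with summits 16800 and 16290 bp upstream, had signal values of 5.97 and 2.61 and were 100% covered by H3K4me1. No other H3K27ac peak was listed within 192041 bp of the IRS2 start, and the next H3K4me3 peak lay 351261 bp away. The H3K4me1 peak at the edge of the window, 49941 bp from the start, had a signal value of 5.68. It was the member peak farthest from its start, while the nearest peak outside any window was an H3K4me1 peak 50245 bp upstream of IGFBP3 with a signal value of 11.1.

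The amount of marked chromatin around the starts was set against windows of the same size centred on all 24446 H3K4me3 summits, as a description of the lists. H3K27ac covered 25.1 kb around IGFBP1, more than in 89.5% of those windows, whose median was 8.2 kb. It covered 13.6 kb around IRS1 (more than 68.1%), 8.60 kb around INSR (51.6%) and 0.859 kb around IRS2 (10.8%). H3K4me1 covered 32.0 kb around IGFBP1 (more than 76.3% of windows, median 18.2 kb), 21.4 kb around IRS1 (56.6%), 10.2 kb around INSR (30.8%) and 2.85 kb around IRS2 (9.12%). H3K4me3 covered the most around IRS1, at 9.69 kb in 3 peaks, more than 79.6% of windows, and INSR with its single strong peak had 3.07 kb, more than 27.4%. INSR thus combined the strongest H3K27ac and H3K4me3 peaks at a start with average or low coverage around it. For H3K27ac, IGFBP1 had a strong peak over its start and high coverage, although the summit of that peak lay 6662 bp upstream of the start. Peak number alone separated the genes less: IGFBP1 and IRS1 had 6 H3K27ac peaks each and INSR had 7, with a median of 6 over the windows.

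**Figure D4:**
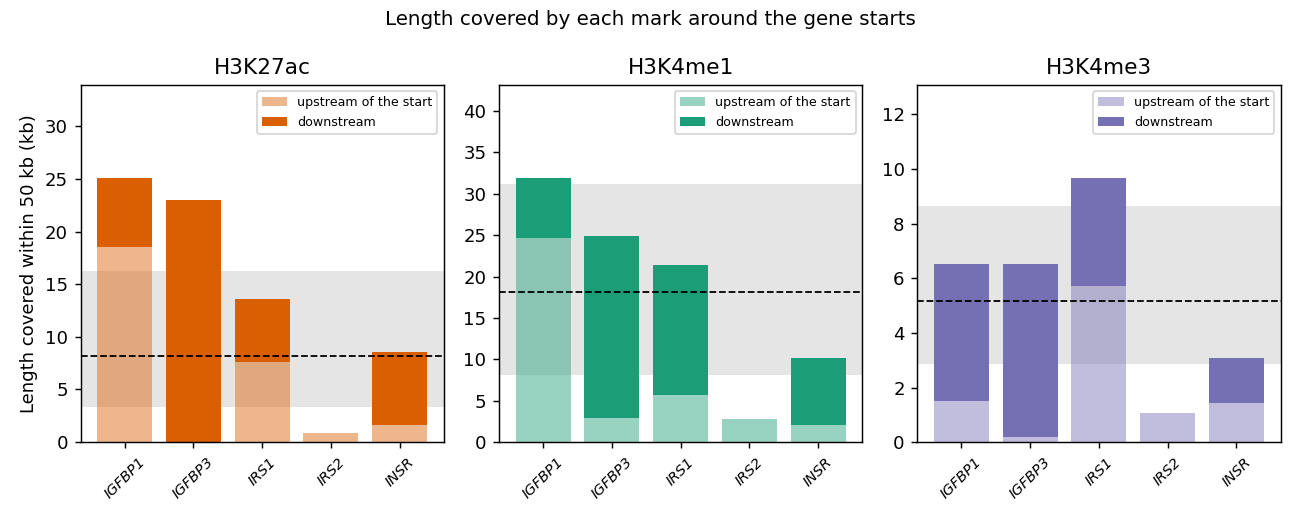
Length covered by each mark within 50 kb of the 5 starts in kb, with the pale part upstream and the dark part downstream of the start; the dashed line and the grey band are the median and the interquartile range over windows of the same size around all H3K4me3 summits. IGFBP1 and IGFBP3, whose windows overlap, exceed the band for H3K27ac (25.1 and 23.0 kb). IGFBP1 is also just above it for H3K4me1 (32.0 kb), and IRS1 is above it for H3K4me3 (9.69 kb). IRS2 falls below the band for all 3 marks, and INSR lies inside it for all 3.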

How the data were processed

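HepG2 chromatin was immunoprecipitated for H3K27ac, H3K4me1 and H3K4me3 and sequenced. Per the submitters' processing notes, MACS2 and build hg19 were used; the aligner, thresholds, filters and use of the control libraries are not given in the sources used here. One list per mark was deposited, pooling 3 replicates going by its name. The deposited lists give, by the authors, a signal value per peak, whose reference is not stated, and the −log10 of its q-value. The deposited browser score was not used. Signal values are the authors' own and served only to rank and describe peaks within a list. Values of single libraries were not analysed here, so the depth per sample and its precision are unknown.

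Positions are hg19 (GRCh37), counted from 1, on chromosomes 1 to 22 and X. Peaks were near a start with at least 1 base within 50 kb, and shared with at least 1 bp in common. H3K27ac runs were joined over gaps of up to 12500 bp. Distances are negative upstream on the gene strand. Peaks named away from a start are the 3 strongest H3K27ac peaks per gene without H3K4me3, and the H3K4me3 peaks not at the start; the further peaks named, were picked after their values were seen, as were the comparison at like H3K4me3 signal value and the distance of 10 kb. The genes, lists and rules were chosen with earlier results of these data known. RefSeq tables (GRCh38.p14) gave promoter sequences and neighbour names only. Without an annotation of hg19, other pathway genes and liver marker genes were not analysed here. No statistical test was made. Overlap counting was tested on simulated data. Alternatives were a −log10 q-value of at least 5, distances of 25 and 100 kb, summits, joining within 1000 bp, 50% overlap, and a peak within 1000 bp of the start. Analyses used Python 3.11.15, numpy 2.4.6, pandas 2.3.3 and matplotlib 3.10.9.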

Additional observations from a re-analysis of the deposited data

How the results depend on the processing

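The counts of peaks near the 5 starts moved by more than 1.5 times under 2 alternatives. Within 100 kb there were 36 H3K27ac peaks, 100 H3K4me1 peaks and 28 enhancer-like H3K27ac peaks, in place of 21, 55 and 15. Joining peaks within 1000 bp gave 11, 28 and 6. Both follow from how these alternatives are built. The other 15 values of these counts stayed within 1.5 times. Among values of single genes, 117 stayed and 48 moved. Limiting the lists to peaks whose −log10 q-value was 5 or more lowered the enhancer-like count from 5 to 3 at IGFBP1, from 6 to 3 at INSR and from 2 to 0 at IGFBP3, and left 2 at IRS1 and 2 at IRS2. The presence of H3K27ac at the starts was the same under each alternative run, but these alternatives could not have changed it. The nearest peaks to the IRS2 and IGFBP3 starts lay 16098 and 26063 bp away, and the peaks at the other starts were far above the q-value limit. For H3K4me3, counting a peak within 1000 bp of the start added IRS2. For H3K4me1 it added IGFBP1, IGFBP3 and INSR, and joining peaks added IGFBP1 and IGFBP3. Ranking within the same chromosome, an alternative chosen after seeing the data, moved the INSR start from the strongest 0.532% to 1.65% for H3K4me3 and from 1.23% to 1.87% for H3K27ac, and the H3K4me1 peak beside the IGFBP1 start from 0.248% to 0.147%. No paired analysis was possible because the lists pool the replicates. With pooled lists of unknown depth, a missing peak means not listed at this depth and threshold, not that the mark is absent.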
